A study of Triticum aestivum with 15 samples.

Results

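In the flag leaves of winter wheat, 1229 loci that carried no reference gene name were assembled with signal in all 15 libraries of the series. The catalogue of transcripts merged over the libraries held 122017 loci, of which 11850 had no gene name on any exon, and the 1229 were those whose summed FPKM (fragments mapped to a transcript, scaled to its length and to all mapped fragments) was above 0 in every library. They made up 10.4% of the loci without a gene name. The rule used only whether a level was above 0, so presence in every library and the level itself are given as descriptions. Tests are confined to differences between treatments, stages and cultivars. A locus at 0 in any library could not enter the set, although such loci remain among all loci tested and the other unannotated loci. Shares of those classes are therefore not matched to the set.

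The libraries compared 2 hard red winter wheat cultivars, TAM111 and TAM112, grown in pots and kept Dry (watered less from the jointing stage onward) or Wet. Flag leaves were sampled at heading (HD, day 79 after transplanting) and at grain filling (GF, day 100), and each library pooled leaves of 4 plants. Of the 8 groups of cultivar, stage and treatment, 7 had 2 libraries, and TAM111 HD Wet had 1. By the study's description TAM112 carries 1AL.1RS, a wheat chromosome 1A whose short arm is that of rye, with the pest resistance loci Gb3 and CmcTAM112, both cultivars carry the dwarfing gene Rht1, they share part of their pedigree, and TAM112 heads slightly earlier. Every group was a whole flag leaf, and in such bulk samples fewer cells of a type and less RNA per cell cannot be told apart. The reference gene names of the catalogue could not be tied to leaf marker genes in the tables used here, so the tissue label was not checked.

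A read-guided assembler joins overlapping and spliced reads into transcripts and reports those that lie outside the reference annotation as loci of their own. Such loci can hold genes that an annotation missed, ends of genes, transposon transcripts or noncoding RNA, and the assembly does not tell these apart. The mRNA was selected by its poly-A tail and the library kit did not mark strand, so the strand of a locus came from its splice sites. Loci are named here by their catalogue number after "L_". Coordinates count from the start of each part into which the chromosomes of the IWGSC RefSeq v1.0 assembly are divided.

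In the merged catalogue, the loci assembled in every library were longer and more often spliced than the other loci without a reference gene. Lengths, exons and transcripts were read from that catalogue, where a locus assembled in more libraries can gather more and longer transcripts. The part of this in the differences was not tested. Their longest transcript had a median of 2243 bp, with quartiles of 1331 and 3191 bp and a range of 134 to 8574 bp, against 795 bp at the other 10621 loci without a gene and 1618 bp at the 34474 reference loci above 0 in all libraries. The median exon number was 4, against 2 and 6. A single exon was found at 135 loci (11%), against 46.3% of the other unannotated loci and 6.66% of the reference loci, while 612 (49.8%) had 5 or more exons and the highest number was 27. More than 1 transcript had been assembled at 870 loci (70.8%), against 20.2% of the other unannotated loci.

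Length and splicing in the merged catalogue moved with the number of libraries that could add to them. The exception was 61 loci above 0 in none, which had a median of 1771 bp and 9.84% of 1 exon. Among loci above 0 in 1 library, of which there were 3606, the median length was 517 bp and 69.0% had 1 exon. At 7 libraries the median was 1364 bp, and at 14 libraries it was 1824 bp with 16.2% of 1 exon. The 439 loci found in 14 libraries had no assembled entry at all in the library that lacked them, which was TAM112 GF Wet replicate 1 at 76 loci, TAM112 GF Dry replicate 1 at 72 and TAM111 GF Wet replicate 2 at 7, the fewest.

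**Figure D1:**
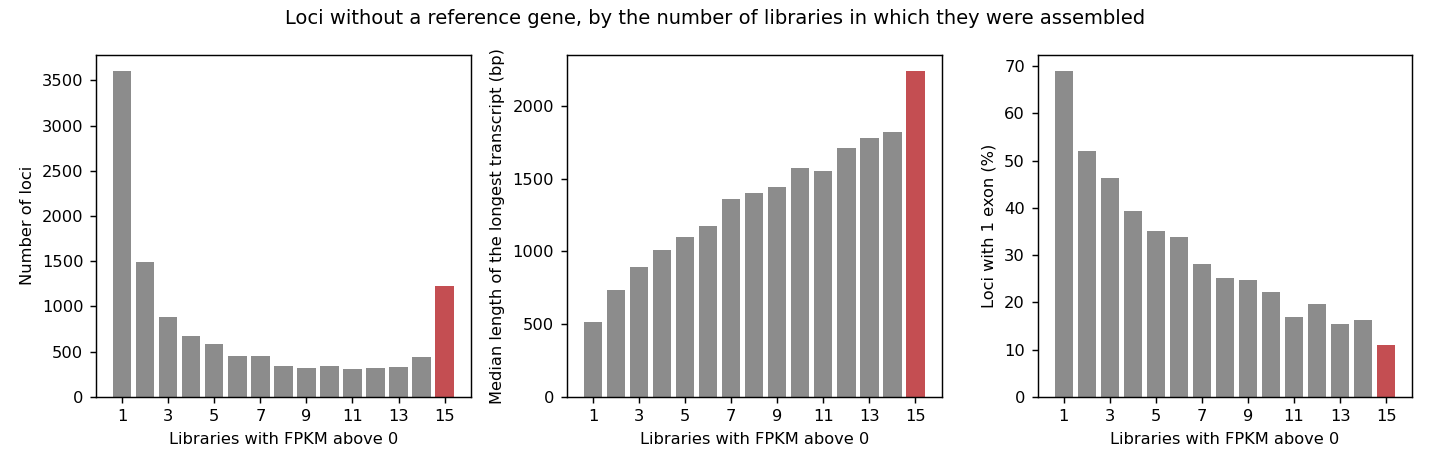
Loci without a reference gene grouped by the number of libraries with FPKM above 0 (x axis): their number (left), the median length of their longest transcript in bp (middle) and the percentage with 1 exon (right). The red bar is the 1229 loci present in all 15 libraries, with a median of 2243 bp and 11% of 1 exon. Lengths and exons are those of the catalogue merged over the libraries.

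At the edge of the rule, the lowest values among included loci were those of L_066078 (0.896 FPKM in TAM112 GF Wet replicate 1), L_023055 (0.982 in TAM112 HD Wet replicate 1) and L_071198 (0.995 in TAM111 HD Dry replicate 1). Just outside it stood L_047911, which had no entry in TAM112 GF Dry replicate 1, read as 0, and 312 to 3923 FPKM elsewhere. L_104459 had no entry in TAM112 GF Wet replicate 2 and stood at 104 to 515 elsewhere. L_100392, whose entries could belong to a neighbouring locus, had none assigned in TAM112 GF Wet replicate 1 and stood at 144 to 265 elsewhere. The edge therefore separated loci by whether an entry was assembled, since no unannotated locus had a value between 0 and 0.613 FPKM.

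Bread wheat carries the A, B and D subgenomes, and the loci were spread unevenly over them. The B subgenome held 575 (46.8%), the A subgenome 338 (27.5%) and the D subgenome 316 (25.7%). The other unannotated loci stood at 38.5% on B, 28.9% on A and 30.8% on D, and the reference loci at 32.8%, 32.6% and 33.8%. Chromosomes 4B and 7B each held 97 loci, the most, whereas 1A held 22, 1D 27 and 7D 28, and none of the 198 unannotated loci on unplaced sequence was present in every library.

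The share of a chromosome's unannotated loci that were present in every library ran from 4.8% on 7D to 15.8% on 4B, with 5.14% on 1A and 5.73% on 1D. On the first part of 7D only 6 of 427 unannotated loci were present in all libraries. Of the 71 there that had signal in 11 or more libraries, 42 were at 0 in TAM112 GF Wet replicate 1, 37 in TAM111 GF Wet replicate 1 and 19 in TAM112 HD Wet replicate 2, against 1 to 9 in each of the other 12 libraries. The first 200 Mb of 1A part 1 begins with the arm that TAM112 has from rye. It held 1 locus present in all libraries and 121 other unannotated loci. The same stretch held 1 locus of the set on 7D, 7 on 4A, 9 on each of 1D and 7A, and up to 33 on 4B. The part of the rye arm in the 1A count was not tested. The locus in that count was L_002936, which starts at position 30926. It stood at 162 to 14701 FPKM in the TAM112 libraries and 231 to 17605 in the TAM111 libraries. The source of the TAM112 reads placed there was not tested.

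**Figure D2:**
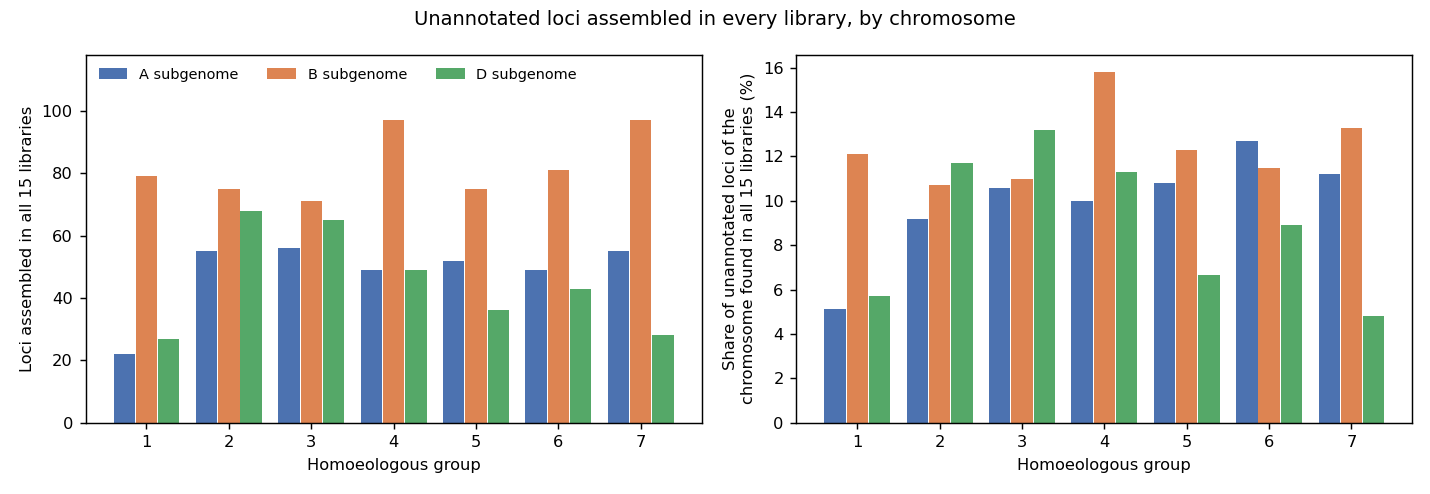
Number of unannotated loci present in all 15 libraries per chromosome (left) and their percentage of all unannotated loci of that chromosome (right), by homoeologous group (x axis) and subgenome (colour). Chromosomes 4B and 7B hold 97 each, and the share is lowest on 7D at 4.8%.

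Most loci lay away from reference genes and from each other. The median distance to the nearest reference locus was 27299 bp, against 22313 bp for the other unannotated loci and 4729 bp between reference loci. Within 1 kb of a reference locus lay 138 loci (11.2%), of which 8 overlapped one. Of the 130 that did not overlap, 61 were on the same strand as the neighbour, 58 on the opposite strand and 11 had no strand. At the other end, 361 (29.4%) were more than 100 kb from any reference locus. The median distance to another locus of the set was 3443692 bp, and 53 had one within 10 kb.

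The loci were moderately expressed. The median over loci of the median FPKM was 9.34 (quartiles 6.57 and 13.9), against 3.05 at the reference loci above 0 in all libraries, and 24 had a median above 100. Only 3 had a value under 1 FPKM in any library, against 14456 of the 34474 reference loci. A reference gene is listed from the annotation also where few reads fall on it, while an unannotated locus is listed only where enough reads assemble. Neither the medians nor the lowest values therefore compare like with like. Together the loci held from 4.33% (TAM111 HD Wet) to 7.18% (TAM111 HD Dry replicate 1) of the FPKM on loci in a library, and 2.82 to 3.54% without the 10 highest.

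The highest FPKM values belonged to very short loci. L_051843 (3D, 1 exon, 134 bp) stood at 2782 to 4955 FPKM in the 15 libraries, and L_051783 (3D, 142 bp) at 761 to 1862. L_044362 (3B, 157 bp) stood at 387 to 957, L_068605 (5A, 186 bp, 2 exons) at 479 to 1512 and L_004855 (1A, 174 bp) at 269 to 1641. Each of these 5 is close in length to a pair of reads laid end to end, where the length that FPKM divides by becomes very small.

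FPKM of such loci moved with the length assembled in a library. L_002936 is placed at the start of 1A, on the arm that TAM112 has from rye, and the source of its TAM112 reads was not tested. It stood at 4522 to 17605 FPKM in the 9 libraries where its entry spanned 103 to 119 bp. In the 6 where it spanned 186 to 284 bp it stood at 162 to 785. The fragments implied by the confidence bound of each FPKM value were 60.2 to 100 and 58.9 to 121, and these overlapped. L_035313 (2D) behaved alike, with 728 to 5169 FPKM in 11 libraries that spanned 103 to 141 bp and 36.8 to 657 in 4 that spanned 160 to 339 bp, on 18.9 to 37.6 and 23.7 to 55.1 implied fragments. The remaining loci among the 10 highest were L_100764 and L_050524, described below, and L_099124 (6D, 135 to 395 FPKM). The interval of L_099124 holds the unannotated locus L_100392, and it was not tested.

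Assembled length varied widely between libraries at most loci. The longest entry of the locus spanned a median of 2.8 times more in one library than in another, and at 792 loci (64.4%) by more than 2-fold, while 227 loci had exactly 1 entry in every library. Replicates of a group differed by a median of 0.51 on the log2(FPKM + 1) scale at these loci, against 0.299 at the reference loci tested. On implied fragments, which are not divided by length but cover only what was assembled, the same differences were 0.374 and 0.379. Across the 1229 loci, which share the same libraries and depth, the replicate difference correlated with the ratio of spans at r = 0.33 and with the number of fragments at r = -0.25.

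Classes of the loci differed little in level. Median FPKM was 9.38 at the 135 loci of 1 exon, 9.75 at the 482 of 2 to 4 exons and 9.24 at the 612 with 5 or more, although their median lengths were 1116, 1626 and 2728 bp. The 437 loci whose span stayed within 2-fold had a median FPKM of 12.3 on 56.5 implied fragments, against 8.51 on 22.8 at the other 792. The median locus had 25.8 to 39.2 implied fragments in a library, and 49 to 129 loci had fewer than 10.

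For the comparisons, 67 loci were left out because an entry touching them was assigned to another locus, and the other 1162 all passed the filter on low values (at least 1 FPKM in 2 libraries). The study describes a randomized block design with sampling time as the blocks and replicate sets of pots within each. Stage and block therefore cannot be told apart. The groups here hold fewer libraries than the replicates described, and p-values measure the spread between these pooled libraries. Differences are on the log2(FPKM + 1) scale from a limma fit to 46667 loci, with the standard error (SE), and a locus was called at a Benjamini-Hochberg adjusted p below 0.05 and at least a 2-fold change. In all, 77 of the 1162 were called in 1 or more of the 15 comparisons, and 50 of these in a comparison of Dry with Wet, 25 of the stages and 21 of the cultivars. Because summed FPKM moved with assembled length, the calls of the comparisons were also counted on the single entry that overlaps the locus most and on implied fragments, both chosen after the values were seen. Of the 77 loci, 38 kept at least 1 of their calls on the largest entry and 29 on implied fragments, although these 2 measures called 74 and 161 loci in all. The share of all loci called in any of the 15 comparisons is not given here. These totals are therefore not read as high or low.

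Few of the loci were called between Dry and Wet. Replicates differed more at these loci than at the reference loci tested (medians of 0.51 and 0.299 on summed FPKM). The part of that spread in the shares called was not tested. Averaged over cultivars and stages, 21 were called, which is 1.81% of those tested, against 4.37% of all loci, 4.56% of the other unannotated loci and 3.46% of the reference loci above 0 in all libraries. Of the 21, 17 were higher and 4 lower in Dry, beside 2.65% and 1.72% of all loci. With median-ratio scaling of the libraries the split was 12 higher and 5 lower, and the median change of the 1162 loci went from 0.13 to 0.04 (all loci 0.08 to 0.02). On the largest entry 14 of the 21 were called again in the same direction, and on implied fragments 12, with 3 of opposite sign. The largest entry called 15 of the 1162 in all (4.14% of all loci) and implied fragments 33 (7% of all loci). On implied fragments 19 were higher and 14 lower in Dry, beside 3.23% and 3.77% of all loci. At 29 loci (2.5%) the Dry libraries did not overlap the Wet libraries within any cultivar and stage, all in one direction, against 6.02% of all loci.

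L_080314, listed by the study as Dehydrin 2, rose in the dry leaves. Dehydrins are hydrophilic proteins that accumulate in drying plant cells and protect membranes and proteins there. The locus is a 760 bp transcript of 1 exon at chr5B_part2:98886635-98887394, 2887 bp from TraesCS5B01G372000. At GF its FPKM was 178 and 137 in TAM111 Dry against 28.9 and 34.5 in Wet, and 291 and 181 in TAM112 Dry against 32.7 and 34.4 in Wet. At HD it was 32.6 and 59.5 against 28.6 in TAM111, and 94.3 and 55.2 against 36.8 and 19.5 in TAM112. Every Dry library was above every Wet library of its cultivar and stage, by the widest margin at GF.

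The average rise of L_080314 was 1.75 (SE 0.22, limma adjusted p = 0.00158), with 2.27 (SE 0.41, adjusted p = 0.0221) in TAM111 GF and 2.74 (SE 0.41, adjusted p = 0.00716) in TAM112 GF. At HD the differences of 0.60 (adjusted p = 0.924) and 1.39 (adjusted p = 0.269) were not called. The TAM111 GF call was lost without any 1 of its 4 libraries and the TAM112 GF call without GF Dry replicate 1, while the average was called without each of 14 libraries in turn. Its span was 547 to 744 bp in all libraries. On implied fragments the average rise was 1.78 (SE 0.20, adjusted p = 0.000219).

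L_100764, listed as cytochrome P450 71a1, had the largest average rise in Dry. Cytochromes P450 are heme enzymes that oxidise small molecules, among them many secondary metabolites of plants. The transcript has 2 exons and 821 bp at chr6D_part2:20498592-20499511 (plus strand), 2313 bp from TraesCS6D01G402700. In TAM111 it stood at 2387 and 2522 FPKM in GF Dry, 482 and 707 in GF Wet, 271 and 447 in HD Dry and 94.3 in HD Wet. In TAM112 the values were 2424 and 2266, 357 and 453, 629 and 265, and 105 and 107 in the same order. The 4 GF Dry libraries were above all 11 others, and within each stage Dry was above Wet.

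The Dry minus Wet difference of L_100764 averaged 2.10 (SE 0.21, adjusted p = 0.000472), and the GF minus HD difference 2.46 (SE 0.21, adjusted p = 0.00109). It was called at GF in TAM111 (2.07, adjusted p = 0.0257) and TAM112 (2.54, adjusted p = 0.00784), while the HD differences of 1.87 (adjusted p = 0.206) and 1.93 (adjusted p = 0.0945) missed the threshold. The TAM112 GF call was lost without GF Dry replicate 1. Its span was 874 to 917 bp, and on implied fragments the averages were 2.0 and 2.47.

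A second P450 locus, L_077120, is listed as cytochrome P450 709b2 and lies at chr5B_part1:394009656-394011032, 1 exon of 1377 bp. Its FPKM in TAM111 was 36.8 and 50.5 in GF Dry, 18.8 and 12.5 in GF Wet, 20.4 and 24.1 in HD Dry and 10.3 in HD Wet. In TAM112 it was 30.6 and 36.7, 12.1 and 7.48, 31.7 and 30.5, and 6.39 and 10.1. Dry was above Wet in each cultivar and stage without overlap, and the average rise was 1.5 (SE 0.17, adjusted p = 0.000856), or 1.90 (SE 0.20, adjusted p = 0.000181) on implied fragments. At GF its span was 1348 to 1366 bp in Dry. In Wet it was 796 and 1292 bp in TAM111 and 633 and 1276 bp in TAM112. The part of the short Wet entries in the rise on implied fragments was not tested.

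L_084555, a 1-exon transcript of 1359 bp at chr5D_part1:336049859-336051217 without a listed product, rose alike. In TAM111 its FPKM was 50.6 and 50.7 in GF Dry, 14.4 and 21 in GF Wet, 17.8 and 37.6 in HD Dry and 9.95 in HD Wet. In TAM112 it was 46.2 and 39.1, 10.3 and 11.3, 45.8 and 42.7, and 9.61 and 12.3. The average rise was 1.65 (SE 0.17, adjusted p = 0.000652), and the same 1.65 on implied fragments. In TAM112 it was as high at HD as at GF under Dry, and the HD difference of 1.93 (SE 0.33, adjusted p = 0.0491) was the only call in that comparison, called again under 5 of 21 alternatives, among them implied fragments (2.0, adjusted p = 0.0134). Of the libraries left out in turn, only either TAM111 HD Dry replicate could go without loss of that call.

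L_001365 (chr1A_part1:446516046-446516754, 2 exons, 544 bp) and L_050524 (chr3D_part1:93205443-93206512, 2 exons, 981 bp) also rose in Dry. L_001365 stood at 61.4 and 49.5 FPKM in TAM111 GF Dry against 11.3 and 15.1 in Wet, and at 130 and 35.3 against 10.8 and 9.05 in TAM112. At HD it was 52.1 and 33.1 against 17.8, and 68 and 105 against 21.7 and 10.1. Its average rise was 2.07 (SE 0.30, adjusted p = 0.00328), and 1.58 (SE 0.22, adjusted p = 0.0011) on implied fragments.

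L_050524 stood at 683 and 709 FPKM in TAM111 GF Dry against 143 and 182 in Wet, and at 559 and 391 against 156 and 166 in TAM112. At HD the values were 416 and 446 against 224, and 353 and 374 against 389 and 196, so that the TAM112 libraries overlapped at HD. The average rise was 1.24 (SE 0.16, adjusted p = 0.00199), with calls at GF in TAM111 (2.10, adjusted p = 0.00863) and TAM112 (1.53, adjusted p = 0.0212). On implied fragments the 3 values were 1.23, 1.91 and 1.51, all called.

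L_037304, listed as sodium/calcium exchanger ncl1, differed between Dry and Wet at GF. Exchangers of this family carry calcium against sodium across membranes and take part in salt and calcium balance. The transcript has 7 exons and 2161 bp on the minus strand at chr3A_part1:108376082-108380928, 325 bp from TraesCS3A01G131700 on the opposite strand. At GF it stood at 37.6 and 32.6 FPKM in TAM111 Dry against 15.2 and 13.5 in Wet, and at 56.4 and 50.5 against 12.9 and 11.9 in TAM112. At HD it stood at 19.9 and 16.2 against 30, and at 39.9 and 21.9 against 33.1 and 30.2, with Dry below Wet in TAM111 and overlapping in TAM112.

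The rise of L_037304 at GF was 1.24 (SE 0.27, adjusted p = 0.0464) in TAM111 and 2.02 (SE 0.27, adjusted p = 0.00421) in TAM112. The HD differences were -0.71 (adjusted p = 0.65) and -0.09 (adjusted p = 1), and the average of 0.61 was under 2-fold. Its span was 4660 to 4831 bp in all libraries, and on implied fragments the GF rises were 1.14 and 1.97.

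**Figure D3:**
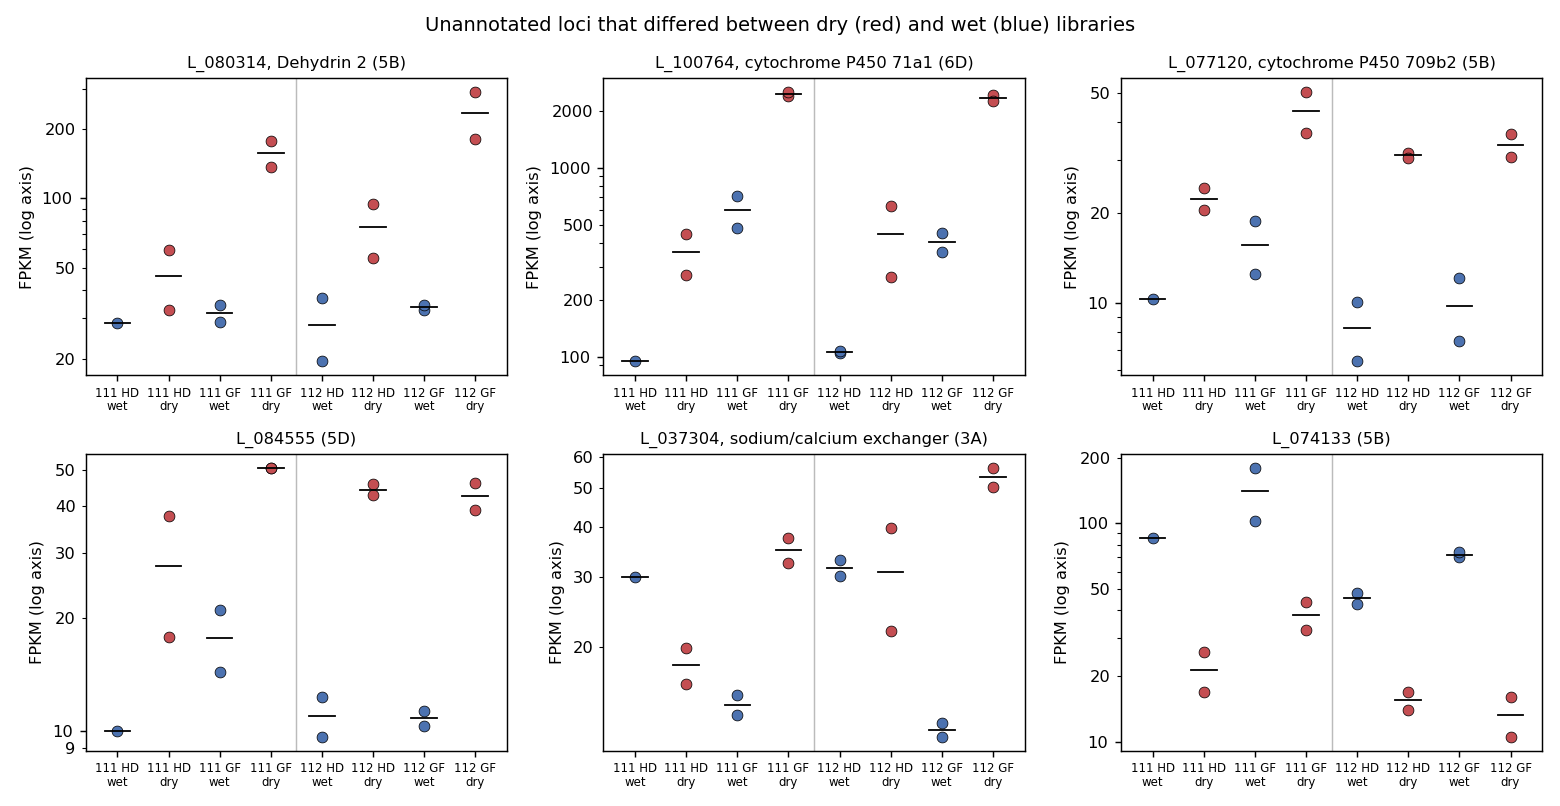
FPKM (y axis, log) of 6 unannotated loci in every library, by cultivar, stage (HD, GF) and treatment (red Dry, blue Wet), where each point is a library and each line the group mean. The 5 risers stand higher in Dry at GF in both cultivars and L_074133 stands lower in Dry in every group.

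On summed FPKM the loci that fell in Dry were fewer. L_074133 (chr5B_part1:14495494-14513044, plus strand, 7 exons, 2221 bp, 8 transcripts) stood at 32.4 and 43.7 FPKM in TAM111 GF Dry against 180 and 102 in Wet, and at 10.5 and 16.1 against 69.9 and 74 in TAM112. At HD it stood at 25.7 and 16.9 against 85.7, and at 14 and 16.9 against 42.7 and 47.9. No Dry library reached a Wet library of its cultivar and stage, and the average difference was -1.92 (SE 0.18, adjusted p = 0.000345), or -1.52 (SE 0.16, adjusted p = 0.000182) on implied fragments. In TAM111 GF alone the 2 measures parted, with -1.82 (adjusted p = 0.0221) on FPKM and -0.20 (adjusted p = 0.824) on implied fragments, and the FPKM call was lost without either Dry replicate or Wet replicate 1.

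L_052747 (chr3D_part2:127300611-127305552, 3 exons, 543 bp) stood at 14.2 and 41.4 FPKM in TAM111 GF Dry against 155 and 102 in Wet, and at 20.1 and 26.1 against 51 and 221 in TAM112. At HD it stood at 104 and 22.1 against 259, and at 66 and 89.5 against 148 and 146. Dry was lower in each of the 4 comparisons without overlap, and the average was -1.95 (SE 0.43, adjusted p = 0.022), or -2.06 (SE 0.34, adjusted p = 0.00246) on implied fragments. Its span was 635 to 658 bp in Dry and 649 to 4914 bp in Wet, whose part was not tested, and the call was lost without TAM111 GF Dry replicate 1, TAM111 GF Wet replicate 1, TAM112 GF Dry replicate 1 or TAM112 HD Dry replicate 1.

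By cultivar and stage, Dry and Wet differed at more of the loci at GF than at HD. In TAM112 GF 29 were called beside 5.87% of all loci, with 23 higher and 6 lower in Dry beside 4.07% and 1.8%. In TAM111 GF 12 were called beside 2.78%, with 11 higher and 1 lower beside 1.72% and 1.06%. In TAM111 HD 5 were called beside 0.469%, all lower in Dry (0.414% of all loci), and in TAM112 HD 1 beside 0.426%, which was higher (0.296%). The direction changed with the measure. On implied fragments 71 were called in TAM112 GF (7.72% of all loci), with 33 higher and 38 lower in Dry beside 4.03% and 3.7%, and 16 of the 29 kept their call. In TAM111 GF 30 were called on that measure (3.56%), with 18 higher and 12 lower beside 1.6% and 1.96%, and 7 of the 12 kept their call. In TAM111 HD none of the 5 kept its call and 2 had the opposite sign, while the 4 called on implied fragments (0.242% of all loci) were all higher in Dry (0.0771%). On the largest entry 18 of the 29, 8 of the 12 and 1 of the 5 were kept. As shares of the 1162, on summed FPKM, these were 2.5%, 1.03%, 0.43% and 0.0861%, so each stood below the share of all loci. The reference loci above 0 in all libraries stood at 5.62%, 2.21%, 0.282% and 0.213%, the third of which was below that of the set. No locus was called in all 4. At GF 8 were called in both cultivars, and the share of all loci called in both is not given here. Of the 8, 7 moved in the same direction: L_037304, L_050524, L_077120, L_080314, L_084555 and L_100764 rose and L_074133 fell. The eighth, L_046746, is described with the interactions.

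These counts depended on single libraries and on scaling. The TAM112 GF count was 11 without GF Dry replicate 1 and 18 without GF Wet replicate 1, and the TAM111 GF count was 2 without GF Dry replicate 1, 1 without GF Wet replicate 1 and 7 without GF Wet replicate 2. With median-ratio scaling the splits were 18 higher and 9 lower in TAM112 GF and 5 higher and 2 lower in TAM111 GF, where scaling moved the median of all loci from 0.10 to 0.00. The TAM111 HD count was 2 without HD Dry replicate 1 and 1 without HD Dry replicate 2, and the TAM112 HD count was 0 with median-ratio scaling or without any 1 TAM111 GF library, 2 without HD Dry replicate 2 and 3 without HD Wet replicate 1. On the libraries of 1 comparison alone limma called 0 of the 1162 in each of the 4, although 156 and 138 (TAM111 GF and HD) and 161 and 135 (TAM112 GF and HD) had an unadjusted p below 0.05. In that setting it called 0 of all 46667 loci in both GF comparisons, 661 in TAM111 HD and 28 in TAM112 HD.

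Some GF calls in 1 cultivar were not made on implied fragments. L_005806 (1B, 15 exons, 19 transcripts) stood at 4.84 and 18.2 FPKM in TAM112 GF Dry against 91.9 and 48.4 in Wet, a difference of -2.68 (SE 0.54, adjusted p = 0.0224). Its largest entry spanned 7031 and 4659 bp in those Dry libraries and 2279 and 4733 bp in Wet, and on implied fragments the difference was 0.08 (adjusted p = 0.974). The call was also lost without TAM112 GF Dry replicate 1 or GF Wet replicate 1. L_060129 (4B) stood at 3.75 and 4.59 against 16.4 and 40.1, a difference of -2.38 (SE 0.46, adjusted p = 0.0193) that was -0.86 (adjusted p = 0.484) on implied fragments and not called without either Dry replicate or Wet replicate 2. L_093488 (6B) stood at 19 and 18.3 FPKM in TAM111 GF Dry against 2.16 and 4.3 in Wet, a difference of 2.26 (SE 0.49, adjusted p = 0.0446) that was -0.92 (adjusted p = 0.534) on implied fragments and was called without TAM111 HD Dry replicate 1 or 2 but not without any other library.

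Of 141 loci that the study listed as differing with treatment and without a database match, 4 were in the set. L_009694 (1B) rose in Dry by 1.39 on average (SE 0.32, adjusted p = 0.0249) and by 1.91 (adjusted p = 8.56e-05) on implied fragments, with 29 and 66.5 FPKM against 7.51 and 24.1 in TAM111 GF and 67.9 and 43.4 against 7.64 and 18.1 in TAM112 GF. L_060462 (4B) rose in TAM112 GF from 2.1 and 2.21 to 8.47 and 10.8 FPKM (1.74, SE 0.38, adjusted p = 0.0296), but the difference of 1.53 (SE 0.46, adjusted p = 0.0656) on implied fragments was not called. L_096509 (7.37 to 57.2 FPKM) and L_108327 (3.75 to 35.5) were called in no comparison on summed FPKM. Nor was L_020373 (2A, 2.69 to 49.7), listed as a Ty3-gypsy retrotransposon protein. On scaled implied fragments L_020373 stood at 92.4 and 80.1 in TAM111 GF Dry against 4.86 and 5.59 in Wet. Its Wet entries there spanned 296 and 286 bp, against 1541 and 1798 bp in Dry. L_108327 stood at 73.3 and 79.3 against 12.6 and 24.6 in the same libraries. At both loci Dry was above Wet on that measure in each cultivar and stage without overlap. L_096509 was higher in Dry at GF and lower at HD. The study's lists were chosen on the same samples and are not independent evidence of a direction.

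**Figure D4:**
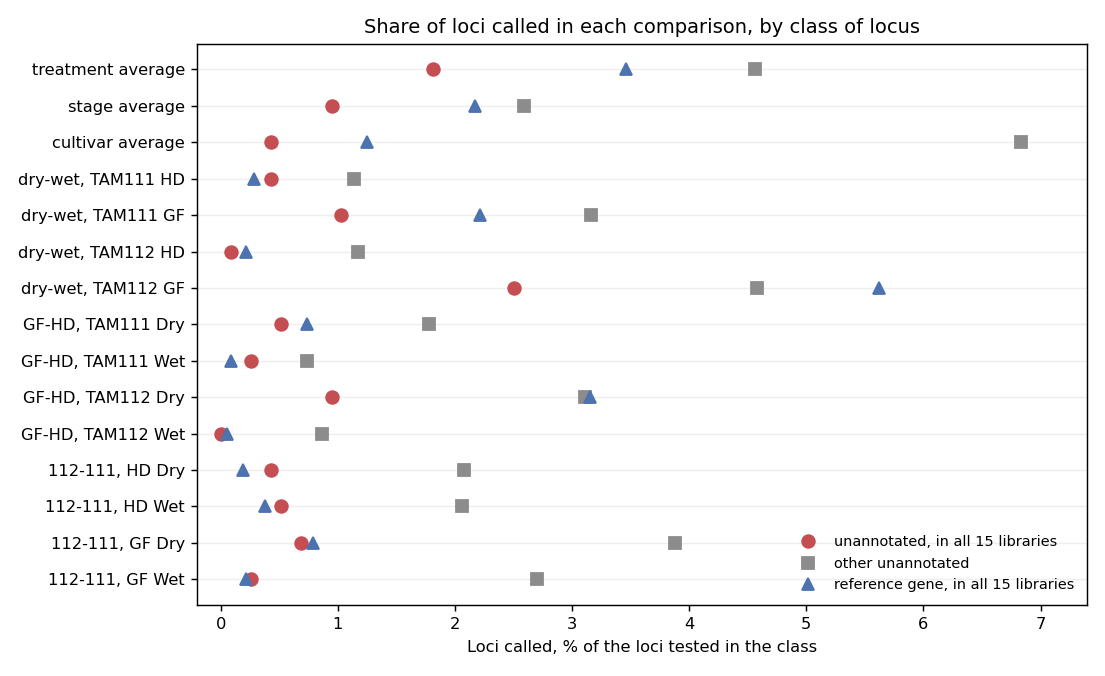
Percentage of tested loci called (x axis) in each comparison (y axis) for the 1162 unannotated loci present in every library (red circles), the other unannotated loci (grey squares) and the reference loci present in every library (blue triangles). In the treatment average the red circle is at 1.81%, below 4.56% and 3.46%.

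Between stages, 11 loci were called on average beside 2.47% of all loci, or 0.947% of those tested. At GF 6 were higher and 5 lower, beside 1.24% and 1.23% of all loci. The count was 6 without TAM111 GF Dry replicate 1, 7 without TAM111 HD Dry replicate 2 and 7 without TAM112 HD Dry replicate 2. On the largest entry 4 of the 11 kept their call and on implied fragments 5, while these measures called 8 (2.42% of all loci) and 27 (4.56%). L_100764, the P450 locus above, had the largest difference of these. L_053922 (4A, chr4A_part1:7588838-7592034, 7 exons, 1270 bp) was the only one called whose 8 GF libraries, at 6.24 to 16.7 FPKM, all stood above the 7 HD libraries, at 2.71 to 5.97. Its difference was 1.05 (SE 0.19, adjusted p = 0.0186), and 1.26 (SE 0.18, adjusted p = 0.00267) on implied fragments, but the call was lost without TAM111 GF Dry replicate 1, TAM111 GF Wet replicate 1 or TAM112 HD Dry replicate 1. Such separation was seen at 9 loci (0.775%), against 1.26% of all loci.

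Within one cultivar and treatment, GF and HD differed at 11 loci in TAM112 Dry beside 3.24% of all loci and at 6 in TAM111 Dry beside 1.05%. In TAM112 Dry 8 were higher and 3 lower at GF, beside 2.01% and 1.22%, and in TAM111 Dry 4 and 2, beside 0.821% and 0.231%. On implied fragments 5 of the 11 TAM112 calls were kept and 2 had the opposite sign, and 1 of the 6 TAM111 calls was kept and 3 had the opposite sign. That measure called 57 in TAM112 Dry (5.29% of all loci), with 34 higher and 23 lower beside 2.63% and 2.66%, and 11 in TAM111 Dry (1.23%), with 8 higher and 3 lower beside 0.786% and 0.448%. On the largest entry 8 of the 11 and 2 of the 6 were kept. With scaling the TAM111 Dry split was 2 higher and 3 lower, and that of TAM112 Dry 6 and 4. The TAM112 Dry count ran from 1 without HD Dry replicate 2 to 26 without GF Dry replicate 2, with 4 without GF Dry replicate 1 and 7 without HD Dry replicate 1, TAM111 GF Wet replicate 1 or TAM111 GF Wet replicate 2. The TAM111 Dry count was 2 without GF Dry replicate 1 and 3 without HD Dry replicate 1, TAM112 GF Wet replicate 1 or TAM112 GF Wet replicate 2. L_100764 was called in both, by 2.81 (adjusted p = 0.0132) in TAM111 Dry and 2.52 (adjusted p = 0.0157) in TAM112 Dry.

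In the Wet libraries the stages differed at 3 loci in TAM111, all lower at GF (0.116% of all loci), beside 0.195% in either direction, and at 0 in TAM112 beside 0.197%, where 114 had an unadjusted limma p below 0.05. The TAM111 Wet count was 1 without GF Wet replicate 1 and rested on the single HD Wet library, and the median spans of the 3 loci differed by more than 1.5-fold between the stages. None of the 3 was called on implied fragments, and 2 had the opposite sign there. The TAM112 Wet count was 6 without GF Wet replicate 2, 3 without HD Wet replicate 1, 2 without HD Wet replicate 2 and 1 without either TAM111 HD Dry replicate.

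Few loci were called between the cultivars. On average 5 were called, or 0.43% of those tested, against 2.85% of all loci, 6.83% of the other unannotated loci and 1.25% of the reference loci. In TAM112 4 were higher and 1 lower, beside 0.971% and 1.88% of all loci. The largest entry called 8 (2.8% of all loci), 2 of them among the 5, and implied fragments 15 (4.22%), 1 of them among the 5. The count was 2 without TAM111 GF Wet replicate 2 and 3 without TAM111 HD Dry replicate 2 or TAM112 HD Dry replicate 1. At 2 loci (0.172%), both called, the libraries of the cultivars did not overlap, against 1.66% of all loci.

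The largest of these differences was at L_092897 (chr6B_part1:51214967-51224949, minus strand, 9 exons, 3694 bp, 6 transcripts), 74649 bp from the nearest reference gene. Summed FPKM was 5.92, 15.2, 11.7, 6.71, 14.9, 28.2 and 17.1 in the 7 TAM111 libraries and 218, 530, 269, 330, 543, 508, 512 and 601 in the 8 TAM112 libraries. The difference was 4.87 (SE 0.27, adjusted p = 1.4e-05), and it was called in HD Dry, HD Wet, GF Dry and GF Wet, at 4.61 (adjusted p = 0.00441), 4.94 (adjusted p = 0.00844), 5.01 (adjusted p = 0.00154) and 4.92 (adjusted p = 0.00255).

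Most of the TAM112 FPKM at L_092897 came from 1 short entry. In each TAM112 library an entry of 132 to 159 bp that began between positions 51224781 and 51224786 carried 205 to 577 FPKM, and no TAM111 library had an entry under 361 bp at the locus. The largest entry stood at 12.2 to 22.8 FPKM in TAM112 and 5.92 to 14.9 in TAM111. In TAM111 it spanned 9382 to 9945 bp, and in TAM112 3094 to 3307 bp except in HD Wet replicate 2, where it spanned 9741 bp at 21.2 FPKM. On that entry the cultivar difference was 0.99 (SE 0.16, adjusted p = 0.00709) and on implied fragments 0.81 (SE 0.13, adjusted p = 0.00288), both under 2-fold and so not called. Scaled implied fragments were 117 to 297 in TAM111 and 210 to 445 in TAM112, and these overlapped.

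The other separated locus was L_007591 (1B, chr1B_part1:431455628-431457820, 2 exons), at 4.01 to 17 FPKM in TAM111 and 17.8 to 453 in TAM112. Its difference of 1.95 (SE 0.46, adjusted p = 0.0468) was called again under 6 of 20 alternatives, which of the libraries left out in turn included only TAM111 GF Wet replicate 1 and both TAM112 GF Dry replicates. It was 0.69 (adjusted p = 0.00712) on implied fragments. The value of 453 was that of TAM112 GF Dry replicate 1, where the scaled implied fragments were 169, beside 141 in its replicate at 54.9 FPKM. L_076630 (5B, 16 exons, 16 transcripts) stood at 10.2 to 27.2 FPKM in TAM112 and 3.63 to 7.72 in TAM111 except HD Wet at 24.7. Its difference of 1.06 (SE 0.17, adjusted p = 0.00679) was 0.19 (adjusted p = 0.421) on implied fragments, where its libraries ran from 102 to 183.

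Within one stage and treatment, the cultivars differed at 5 loci in HD Dry (2 higher and 3 lower in TAM112) beside 0.626% of all loci, 6 in HD Wet (1 and 5) beside 0.81%, 8 in GF Dry (5 and 3) beside 1.71% and 3 in GF Wet (2 and 1) beside 0.771%. By direction, all loci stood at 0.21% and 0.416% in HD Dry, 0.0879% and 0.722% in HD Wet, 0.521% and 1.19% in GF Dry and 0.146% and 0.626% in GF Wet. On implied fragments 0 of the 5, 0 of the 6, 1 of the 8 and 0 of the 3 kept their call, while that measure called 4, 4, 12 and 2 loci, beside 0.971%, 0.999%, 2.14% and 1.07% of all loci. The 4 in HD Wet were all higher in TAM112 (0.219% of all loci), and 3 of the 6 called on summed FPKM had the opposite sign. In GF Dry 5 were higher and 7 lower, beside 0.641% and 1.5%, and 2 of the 8 had the opposite sign, as had 2 of the 5 in HD Dry. The GF Dry count was 2 without TAM111 GF Dry replicate 1, 4 without TAM112 GF Dry replicate 1 and 5 without TAM111 GF Dry replicate 2 or either TAM112 HD Dry replicate. The HD Dry count was 10 without TAM111 HD Dry replicate 1 and 3 without its replicate 2, and the GF Wet count was 5 without TAM111 GF Wet replicate 1 or TAM112 GF Wet replicate 1 and 8 without TAM112 GF Wet replicate 2.

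**Figure D5:**
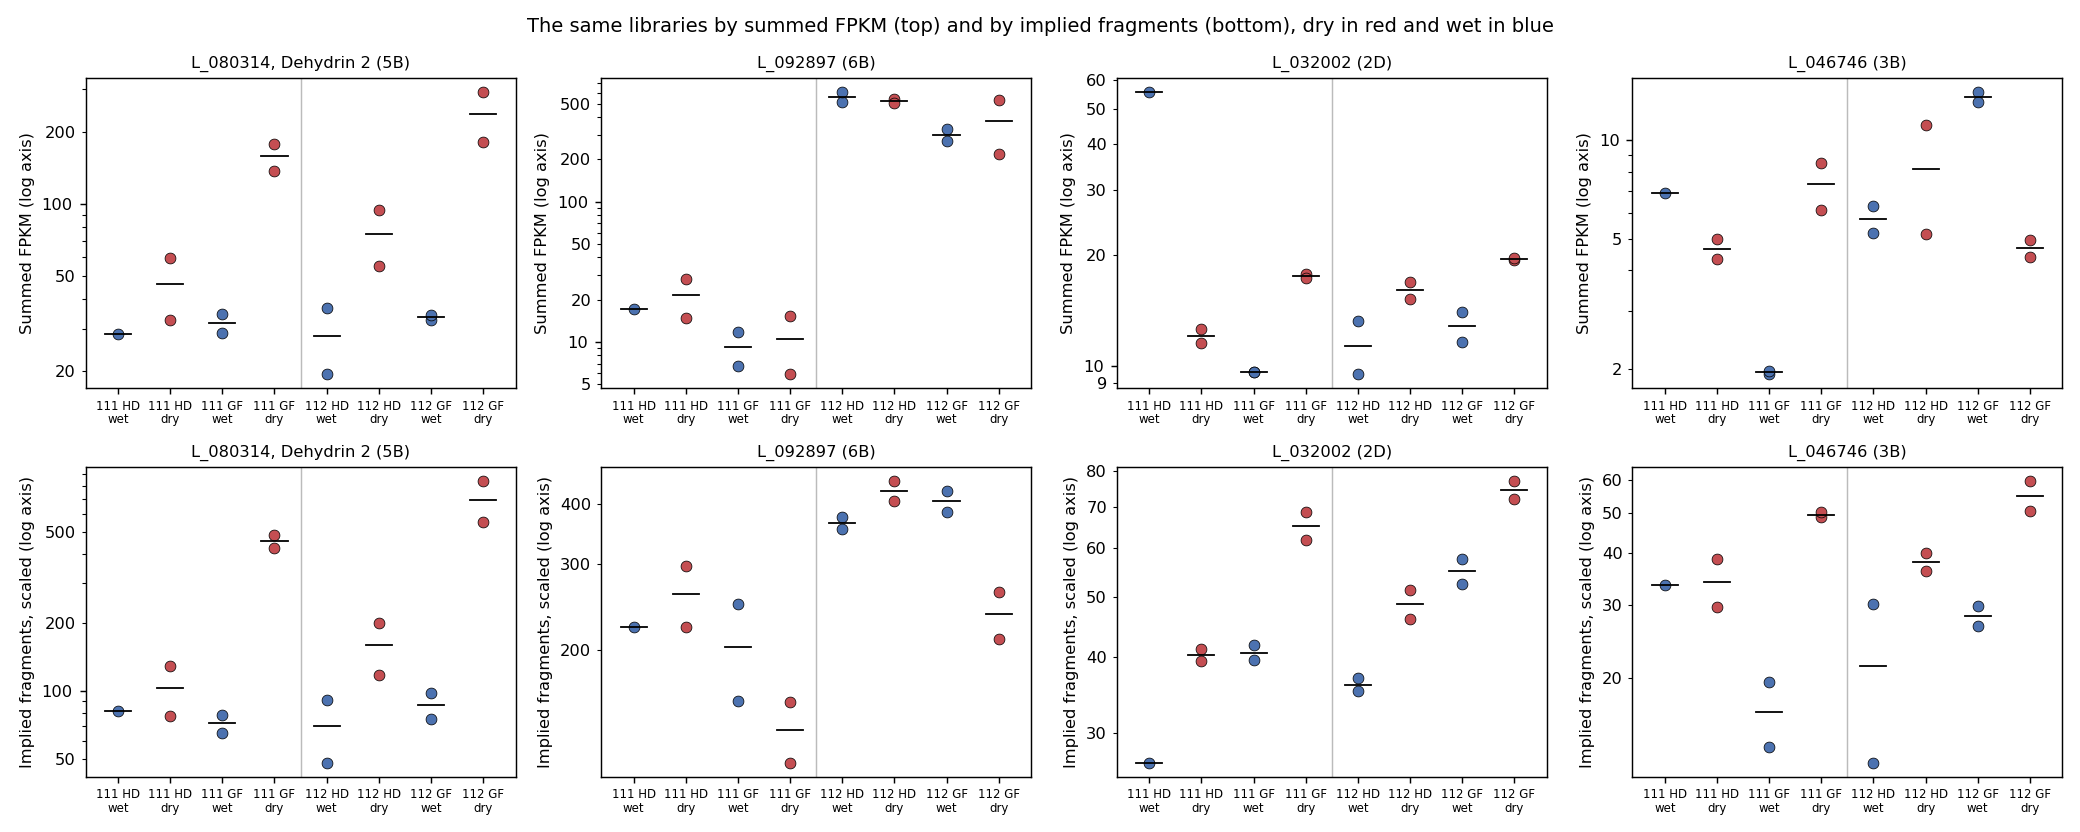
Summed FPKM (top) and scaled implied fragments (bottom), both on log y axes, of 4 loci in every library by cultivar, stage and treatment (red Dry, blue Wet, line the group mean). L_080314 is higher in Dry at GF on both measures, while the cultivar gap of L_092897 and the high TAM111 HD Wet library of L_032002 are seen on summed FPKM and shrink or turn on implied fragments.

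A difference in the response to Dry between cultivars or stages was called at few loci. The cultivar by treatment interaction was called at 1 locus at HD beside 0.159% of all loci and at 2 at GF beside 0.24%. The stage by treatment interaction was called at 1 in TAM111 beside 0.21% and at 0 in TAM112 beside 0.193%, where 103 had an unadjusted limma p below 0.05. On the largest entry and on implied fragments limma called 0 of the 1162 in each of the 4, and implied fragments called 7 (HD), 10 (GF), 27 (TAM111) and 40 (TAM112) of all 46667 loci. Single libraries moved these counts, from 0 without either TAM111 HD Dry replicate to 2 without any TAM111 GF library, either TAM112 HD Dry replicate or TAM112 HD Wet replicate 1 in the cultivar by treatment interaction at HD. At GF it was 0 without TAM111 GF Dry replicate 1, either TAM111 HD Dry replicate, either TAM112 GF Wet replicate or either TAM112 HD Wet replicate, and 1 without TAM111 GF Wet replicate 1 or either TAM112 HD Dry replicate. The stage by treatment count in TAM111 was 3 without TAM111 GF Dry replicate 2 and 2 without any TAM112 Dry library, and that in TAM112 was 3 without TAM112 HD Dry replicate 1, 2 without TAM112 GF Dry replicate 2 or GF Wet replicate 2, and 1 without either TAM111 GF Wet replicate, TAM112 HD Dry replicate 2 or either TAM112 HD Wet replicate.

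L_032002 (chr2D_part1:263476582-263479635, 5 exons, 316 bp from TraesCS2D01G241600) gave 2 of these calls. Its FPKM was 55.4 in the single TAM111 HD Wet library and 9.51 to 19.6 in the other 14. The Dry minus Wet difference in TAM111 HD was -2.11 (SE 0.25, adjusted p = 0.00846), the cultivar by treatment difference at HD 2.59 (SE 0.32, adjusted p = 0.0222) and the stage by treatment difference in TAM111 2.92 (SE 0.32, adjusted p = 0.00976). On implied fragments that library was the lowest of the 15, at 26.9 against 35.1 to 77.1, and the 3 differences were 0.57, -0.14 and 0.11, none of which was called. The cultivar by treatment call was also lost without either TAM111 HD Dry replicate. L_089361 (6A) was likewise at 45.1 FPKM in that library and 2.45 to 13.3 in the others, and its TAM111 HD difference of -2.92 (SE 0.45, adjusted p = 0.0313) was -0.29 (adjusted p = 1) on implied fragments and was not called without TAM111 HD Dry replicate 1 or 2 or TAM112 GF Dry replicate 1 or 2.

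L_046746 (chr3B_part2:181437058-181443567, 13 exons) moved in opposite directions at GF, at 6.13 and 8.53 FPKM in TAM111 Dry against 1.93 and 1.97 in Wet and at 4.4 and 4.97 in TAM112 Dry against 14 and 13.1 in Wet. The difference was 1.48 (adjusted p = 0.0377) in TAM111 and -1.36 (adjusted p = 0.0334) in TAM112, and the interaction -2.84 (SE 0.43, adjusted p = 0.043). On implied fragments TAM111 rose by 1.54 (adjusted p = 0.0416), the TAM112 difference was 0.94 (adjusted p = 0.148) and the interaction -0.61 (adjusted p = 0.878). L_092456 (chr6B_part1:422694107-422703153, 12 exons) stood at 33.2 and 16.8 FPKM in TAM111 GF Dry against 4.05 and 4.9 in Wet, and at 6.87 and 4.71 against 11.1 and 12.3 in TAM112. Its interaction was -3.09 (SE 0.47, adjusted p = 0.0418), and -0.66 (adjusted p = 0.877) on implied fragments. Leaving out 1 library ended the L_046746 interaction call except for either TAM112 HD Dry replicate, and that of L_092456 except for TAM111 GF Dry replicate 2.

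Changes were small at most of the loci. The average Dry minus Wet difference had quartiles of -0.13 and 0.39 and reached 2-fold at 36 loci (3.1%), against 7.42% of all loci tested. For the stages 35 (3.01%) reached 2-fold, against 5.73%, and for the cultivars 18 (1.55%), against 5.64%. At 576 loci (49.6%) all 3 averages were within 0.5 of 0. All 4 Dry minus Wet differences were above 0 at 169 loci (14.5%), against 15.9% of all loci, and below 0 at 53 (4.56%), against 9.19%. The rule kept loci at 0 in any library out of the set but not out of all loci tested. These shares therefore do not compare like with like.

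Calls were spread over the classes of locus. A call in any of the 15 comparisons was made at 11 of 130 loci of 1 exon (8.46%), 31 of 462 with 2 to 4 exons (6.71%) and 35 of 570 with 5 or more (6.14%). By subgenome the shares were 8.18% on A, 6.95% on B and 4.38% on D, and by distance 8.59% within 1 kb of a reference locus and 3.19% beyond 100 kb. Loci whose span stayed within 2-fold were called at 37 of 427 (8.67%), and the others at 40 of 735 (5.44%). These shares were not tested against each other, and the share of all loci with a call in any comparison is not given here.

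Changes at the loci were weakly related to those at the nearest reference locus. For pairs within 1 kb (67 pairs from the same libraries, where reads could fall to either locus) r was -0.03 for treatment, 0.05 for stage and 0.21 for cultivar. For 138 pairs at 1 to 10 kb the values were 0.14, -0.04 and 0.27, and for 190 pairs beyond 100 kb -0.08, -0.06 and -0.02. Among pairs within 1 kb, the cultivar value was 0.38 over 27 pairs on opposite strands and 0.08 over 33 on the same strand.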

How the data were processed

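Flag leaf mRNA was measured by paired-end RNA-seq in 15 libraries. The authors demultiplexed (bcl2fastq 1.7) and trimmed the reads (Trimmomatic 0.38), aligned them to IWGSC RefSeq v1.0 with TopHat2, assembled each library with Cufflinks and merged the assemblies with Cuffmerge (versions not given in the sources used here). The deposited per-library tables hold FPKM, normalized by the authors to length and mapped fragments, with confidence bounds for each assembled entry. Read counts and the Cuffdiff output were not analysed here, so the depth of each library in reads was not used.

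Entries were assigned to the merged locus they overlapped most (bedtools 2.31.1, Python 3.11.15) and their FPKM summed. A locus with no entry was read as 0. Loci with an entry assigned to another locus (6183 in all) were left out of tests. Implied fragments are the square of the ratio of 2 times the FPKM to the distance from it to its upper bound, summed over entries and scaled between libraries. They are an approximation, since a bound can also carry uncertainty in how reads were shared between transcripts. They also cover only assembled entries, so a locus assembled short in a library can hold fewer of them there.

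Log2(FPKM + 1) of 46667 loci with at least 1 FPKM in 2 libraries was fitted over the 8 groups with limma 3.58.1 (R 4.3.3), with 7 residual degrees of freedom and Benjamini-Hochberg adjustment. Calls needed an adjusted p below 0.05 and at least a 2-fold change, and interactions the adjusted p alone. The single TAM111 HD Wet library was assumed to vary like the other groups. The fit was tested on simulated data. The alternatives were a pseudocount of 0.1, median-ratio scaling, no filter, a replicate block, the libraries of a comparison alone, leaving out each replicate, stricter membership and, added after the values were seen, the largest entry and implied fragments.

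Loci were named by rule. The rule took the 10 of highest mean level, up to 5 rises and 5 falls per average among called loci whose libraries did not overlap, and up to 3 rises and 3 falls per comparison of Dry with Wet. It also took called interactions, loci listed by the study (for their product name only) and the 3 loci on each side of the presence threshold. The loci and lists were chosen with earlier results of these data known. No sequences were used, and strand was not used in assignment.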

Additional observations from a re-analysis of the deposited data

Results flagged for a closer look

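The response to Dry differed between groups at 3 loci by limma's test of the interaction. L_046746 had a cultivar by treatment difference at GF of -2.84 on summed FPKM, -1.36 (adjusted p = 0.833) on the largest entry and -0.61 (adjusted p = 0.878) on implied fragments. For L_092456 the same difference was -3.09, with -2.66 (adjusted p = 0.167) and -0.66 (adjusted p = 0.877) on the other measures.

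L_032002 had a cultivar by treatment difference at HD of 2.59 and a stage by treatment difference in TAM111 of 2.92, both resting on the single TAM111 HD Wet library. On the largest entry these were 0.65 (adjusted p = 1) and -0.49 (adjusted p = 0.849), and on implied fragments -0.14 (adjusted p = 1) and 0.11 (adjusted p = 0.981).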

How the results depend on the processing

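Deviations of replicate 1 from the group mean correlated at -0.0387 to 0.0865 over the 21 pairs of groups. A correlation over all loci cannot show whether replicate numbers pair the libraries at some of them. With the replicate block the counts were 3 in TAM111 HD, 0 in TAM112 HD and 0 in the cultivar by treatment interaction at GF. A pseudocount of 0.1 gave 2 in TAM112 HD and 0 in that interaction. Scaling gave 7 in TAM111 GF and 0 in TAM112 HD. Without a filter the counts were 10 (TAM111 HD), 7 (TAM111 GF), 0 (TAM112 HD), 5 (stage in TAM111 Wet) and 7 (stage in TAM112 Dry). In the interactions of cultivar at HD and of stage in TAM111 and TAM112 they were 4, 3 and 1. That fit tested 73814 loci, and the shares of all loci called under these settings are not given here.

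On the libraries of a comparison alone limma called 0 in each Dry and Wet comparison, in each stage comparison and in each cultivar comparison but HD Wet, which had 1. Unadjusted p-values below 0.05 numbered 88 to 161 there. The interactions of cultivar at HD and GF gave 2 and 1, and those of stage in TAM111 and TAM112 gave 4 and 1.

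Leaving out 1 library gave 15 to 25 (treatment average), 6 to 16 (stage average) and 2 to 7 (cultivar average). For Dry against Wet it gave 1 to 6 (TAM111 HD), 1 to 11 (TAM111 GF), 0 to 3 (TAM112 HD) and 11 to 32 (TAM112 GF). For the stages it gave 2 to 7 (TAM111 Dry), 1 to 4 (TAM111 Wet), 1 to 26 (TAM112 Dry) and 0 to 6 (TAM112 Wet). For the cultivars it gave 3 to 10 (HD Dry), 4 to 8 (HD Wet), 2 to 9 (GF Dry) and 2 to 8 (GF Wet). The interactions ran from 0 to 2 (cultivar at HD), 0 to 2 (cultivar at GF), 1 to 3 (stage in TAM111) and 0 to 3 (stage in TAM112). The single TAM111 HD Wet library could not be left out. Shares of all loci in these fits are not given here.

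The largest entry alone, chosen after the data were seen, called 8 in the cultivar average (2.8% of all loci). It called 3 in TAM111 HD (0.463%) and 3 in TAM112 HD (0.465%). For stage it called 1 in TAM111 Wet (0.197%) and 17 in TAM112 Dry (3.57%). For cultivar it called 3 in HD Dry (0.6%) and 1 in GF Wet (0.767%), and in the interactions 0 (0.161% to 0.296%). Implied fragments, likewise added, called 33 in the treatment average (7% of all loci), 27 in the stage average (4.56%) and 15 in the cultivar average (4.22%). They called 30 in TAM111 GF (3.56%), 6 in TAM112 HD (0.658%) and 71 in TAM112 GF (7.72%). For stage they called 11 in TAM111 Dry (1.23%), 57 in TAM112 Dry (5.29%) and 6 in TAM112 Wet (0.351%). In the interactions they called 0 (0.015% to 0.0857%).

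The sign turned at L_005806 in TAM112 GF (0.08 on fragments), at L_092456 (-0.13) and L_093488 (-0.92) in TAM111 GF on fragments, and at L_032002. That locus gave 0.63 (largest entry) and 0.57 (fragments) in TAM111 HD, -0.14 (fragments) for cultivar by treatment and -0.49 (largest entry) for stage by treatment. Of 28 changes of named loci, 6 were called under every alternative run: the treatment averages of L_001365, L_074133, L_077120, L_080314, L_084555 and L_100764. A presence threshold of 0.1 FPKM could change nothing, as no value lay between 0 and 0.613. Leaving out ambiguous loci gave 1162 loci with a median of 2230 bp, leaving out those that overlap a reference locus gave 1221, and assigning only entries with at least 50% of their span on the locus gave 1228. Measured on the union of exons, the median length was 2384 bp. The depth of each library in reads was not used here, the median locus had 25.8 to 39.2 implied fragments in a library, and most groups have 2 libraries.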
